A study of Mus musculus with 6 samples.

Results

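The 10 purinergic genes described here were measured in the regenerating (proximal) stump of the mouse sciatic nerve: the ATP-gated channels P2rx4 and P2rx7, the G protein-coupled nucleotide receptors P2ry2, P2ry6, P2ry12 and P2ry14, the adenosine receptors Adora1 and Adora2a, and the ectonucleotidases Entpd1 and Nt5e. The 10 symbols were listed by name from 52999 gene symbols in the quantification, with earlier results of these data known. Each of the 10 was among the 18396 genes that passed the filter on low counts. Female and male C57BL/6 mice 6 to 8 weeks old underwent axotomy, a complete cut of the left sciatic nerve at mid-thigh, and the stump on the side of the dorsal root ganglia was taken 24 h later. Stumps of 2 mice were pooled in each poly-A RNA-seq library, with 3 libraries for each sex, so that all libraries shared strain, injury and time, and only sex differed by label. The question that this design puts to the genes is whether their mRNA differed between injured female and male nerves.

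Purinergic signalling begins when ATP, ADP, UTP or UDP-sugars leave a stressed or cut cell. P2X receptors are cation channels opened by ATP, while P2Y receptors act through G proteins and differ in the nucleotide that they prefer. On the cell surface Entpd1 (CD39) removes phosphates from ATP and ADP, Nt5e (CD73) turns the resulting AMP into adenosine, and adenosine acts on its own receptors. In peripheral nerve these proteins are known from Schwann cells, macrophages, endothelium, fibroblasts and axons, so a bulk library adds up several sources, and fewer cells of a type cannot be told apart from less RNA per cell.

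The libraries held between 49158283 and 69848769 estimated read counts. As a check of the labels, Xist, the RNA of the inactive X chromosome, stood at 418 to 724 CPM (counts scaled to a common library size) in females and 0.106 to 2.86 CPM in males. The library labelled female 3 also held 139 counts of the Y-linked gene Ddx3y and 147 of Eif2s3y, against 0 counts of both in females 1 and 2, which was 4.42% and 4.12% of the male mean CPM. The Y-linked genes Kdm5d and Uty had counts in all females, at 0.84, 0.90 and 1.33 CPM and at 0.35, 0.66 and 1.26 CPM. In males they stood at 16.7 to 18.4 and 7.94 to 12.1 CPM. The summed level of 8 myelinating Schwann cell markers was 11988 to 15085 TPM (counts scaled by transcript length and library total) in females and 24230 to 29163 TPM in males, and 4 of the 8 were called, all higher in males. Marker lists that name cells of the central nervous system were also measured, and whether their RNA came from such cells was not tested. The 10 neuron markers shared by central neurons summed to 27.3 to 32.4 TPM in females and 45.1 to 63.0 TPM in males. Stmn2 and Snap25 led them, at 26.5 and 11.1 TPM on average, and 7 of 10 were called. The 7 astrocyte markers summed to 74.1 to 97.6 and 68.3 to 89.3 TPM, with 4 of 7 called. Gja1 led them at 56.0 TPM on average and is also listed here among the release genes. Gja1 was not called (log2 fold change, male over female, -0.19, adjusted p = 0.512 in edgeR). All of these calls were higher in males. Over all genes tested 5.30% were called, and 3.84% were called and higher in males. The median log2 fold change was 2.71 for the 10 neuron markers and 1.90 for the 7 astrocyte markers, beside -0.03 over all genes tested. Without female 1 or male 3 the count of genes called over the whole transcriptome fell from 975 to 1 or 7. Without female 3, the female library with counts of Ddx3y and Eif2s3y, it rose to 2609. Where female 3 stood apart from the other females, the log2 fold change without it is given as well.

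None of the 10 genes passed the test between the sexes (0 of 10 at an adjusted p under 0.1 in edgeR's quasi-likelihood test), against 5.30% of all genes tested, of which 3.84% were higher in males and 1.46% higher in females. At an unadjusted p under 0.05 the edgeR test held 1 of the 10, Entpd1, against 20.7% of all genes. DESeq2's Wald test called 1 of the 10, again Entpd1, against 11.5% of all genes, and limma-voom called 0. The median log2 fold change of the 10 genes, male over female, was -0.04 and the median size of the change 0.19, beside -0.03 and 0.23 over all genes tested, with 5 of the 10 above 0.

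The levels of the 10 genes spanned a range from 54.1 TPM for P2rx7 to 2.03 TPM for Adora1, averaged over the 6 libraries. TPM, which corrects for transcript length, is the scale on which levels of different genes are set side by side here. In descending order the means were 54.1 TPM for P2rx7, 43.8 for P2rx4, 38.9 for P2ry2, 28.0 for Entpd1, 26.0 for P2ry6, 24.0 for P2ry14, 11.7 for Nt5e, 10.4 for P2ry12, 4.26 for Adora2a and 2.03 for Adora1. Each of 3 neighbouring steps held in 6 of 6 libraries: P2ry14 was 2.08-fold above Nt5e, P2ry12 2.33-fold above Adora2a and Adora2a 2.23-fold above Adora1 (ratios of geometric means, adjusted p = 0.0938 for each in an exact two-sided sign-flip permutation test over 9 neighbouring pairs). With 6 libraries that test cannot give a raw p below 0.0312, the value each of these 3 steps reached. The other 6 neighbouring pairs did not differ beyond their spread between libraries (exact permutation test, adjusted p = 0.211 to 0.75). P2rx7 exceeded P2rx4 in 4 of 6 libraries, and P2rx4 exceeded P2ry2 in 3 of 6. In females 1 and 2 the ratio of P2rx7 to P2rx4 was 0.836 and 0.867. In those libraries the retained-intron transcript P2rx7-205, described below, was listed at 0.

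**Figure D1:**
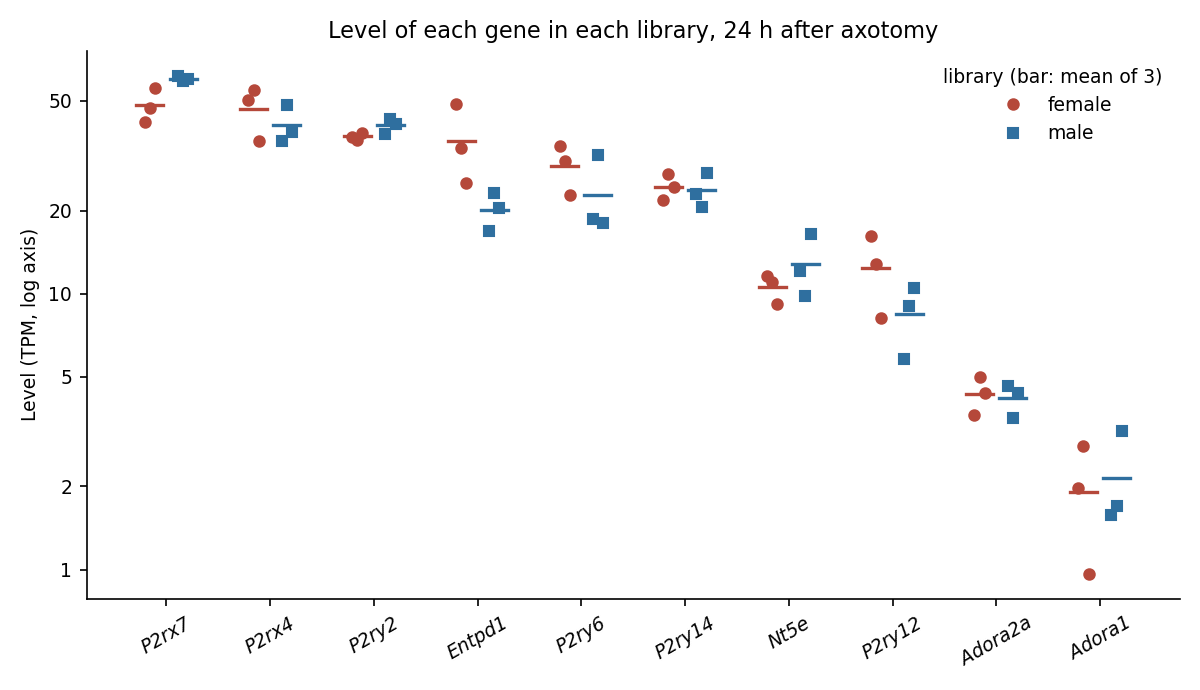
Level of each of the 10 genes in TPM (log axis) in the 3 female libraries (circles) and 3 male libraries (squares), ordered by mean level, with a bar at the mean of each sex. The points of the sexes lie apart for P2rx7 (41.9 to 55.4 TPM in females, 58.9 to 61.6 in males) and for Entpd1 (25.2 to 48.8 and 16.9 to 23.1), and overlap for the other 8 genes.

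P2rx7 and P2rx4 are P2X channels known from macrophages and microglia, among other cells. P2rx7 is known for opening a large pore at high ATP and for the release of interleukin-1. The pair lie 15.14 kb apart on chromosome 5 (GRCm39), both on the plus strand, with no coding gene between them. P2rx4 (chr5:122845541-122867803) was at 50.1, 54.5 and 35.7 TPM in females 1 to 3 and 35.8, 48.4 and 38.4 TPM in males 1 to 3. Female 3 lay with the lower males, and the sexes overlapped. In normalised counts the female mean of P2rx4 was 49.7 ± 7.25 CPM and its male mean 46.3 ± 8.82 CPM (SD, n = 3 each), a log2 fold change, male over female, of -0.10 (SE 0.16, adjusted p = 0.758 in edgeR) with a 95% interval of -0.48 to 0.28. Without female 3 it was -0.22 (adjusted p = 0.426).

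P2rx7 (chr5:122781942-122830400) was at 41.9, 47.2 and 55.4 TPM in females and 61.6, 58.9 and 59.9 TPM in males. In TPM each male library was above each female library. With Entpd1, which differed the other way, P2rx7 was 1 of 2 genes of the 10 without overlap in TPM, against 21.0% of all genes tested. On counts, P2rx7 had 119, 126 and 133 CPM in females and 145, 118 and 126 CPM in males, so that the sexes overlapped, and the log2 fold change was 0.04 (SE 0.11, adjusted p = 0.87 in edgeR, 95% interval -0.22 to 0.30). With the average length of the transcripts of each gene as an offset, edgeR gave 0.34 (SE 0.18, adjusted p = 0.322). Scaled by library size alone the change on counts was -0.0069, and without female 3 it was 0.08 (adjusted p = 0.704 in edgeR).

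A short transcript of P2rx7 moved together with this gap between scales. P2rx7-203, the 4936-base coding transcript, held 29.5, 31.7 and 19.9 TPM in females and 28.2, 16.4 and 21.5 TPM in males. P2rx7-205, a retained-intron transcript of 2103 bases, was listed at 0 in females 1 and 2, at 22.7 TPM in female 3, and at 15.7, 29.7 and 24.1 TPM in males. It thus took 0, 0 and 41.0% of the TPM of P2rx7 in females and 25.5 to 50.5% in males. Female 3 stood with the males in this split. The division of shared reads between transcripts of the gene is Salmon's estimate. Whether any read was unique to P2rx7-205 was not tested. Transcripts from the first exon of the gene held 94.5, 92.6 and 55.1% of P2rx7 TPM in females and 61.7, 42.5 and 52.4% in males.

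**Figure D2:**
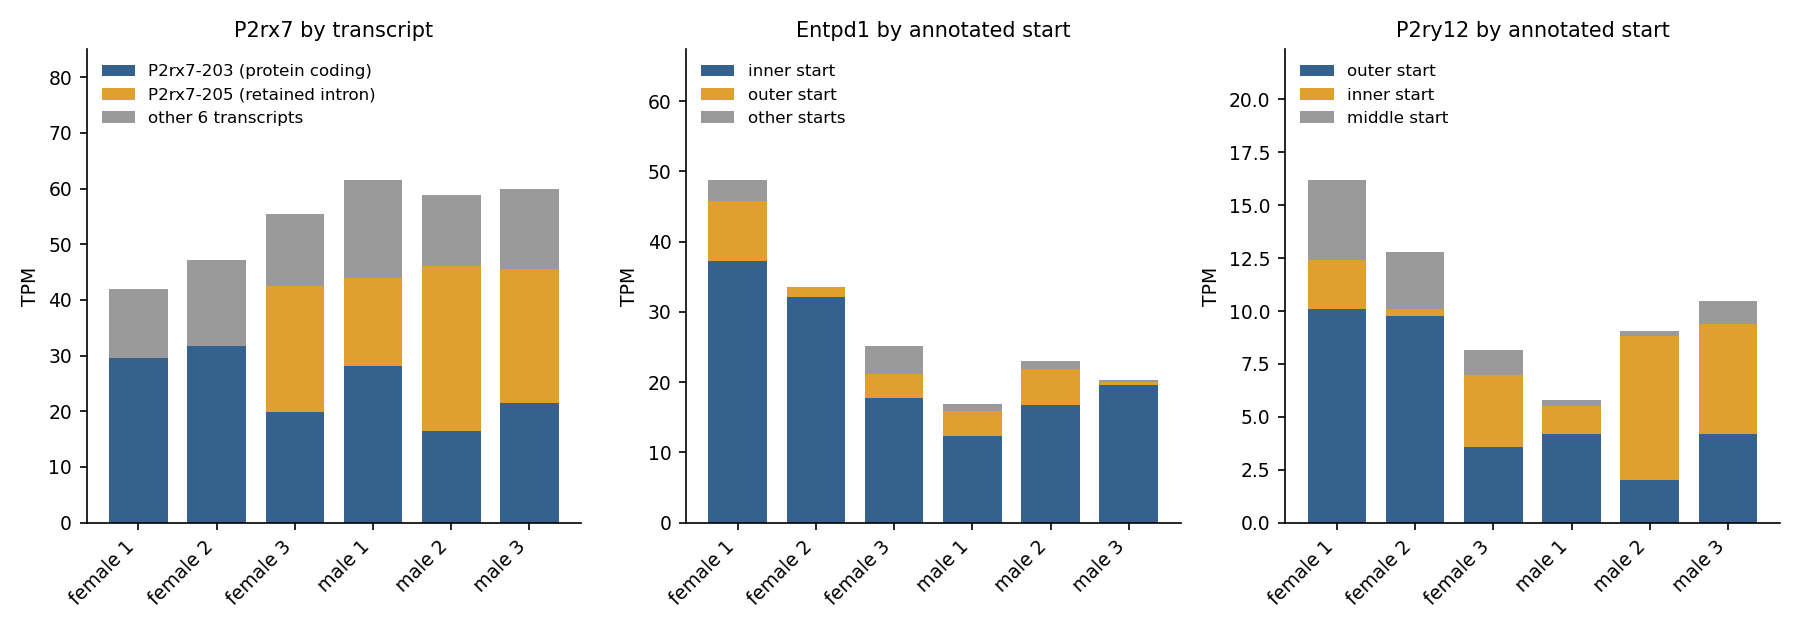
TPM in each library (stacked bars) of P2rx7 by transcript, of Entpd1 by annotated transcription start and of P2ry12 by annotated start. P2rx7-205 is listed at 0 in females 1 and 2 and at 15.7 to 29.7 TPM in the other 4 libraries, the inner start of Entpd1 holds most of its level in every library, and the leading start of P2ry12 changes from library to library.

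P2ry2, which responds to ATP and UTP, and P2ry6, which responds to UDP and is known for calling phagocytes to damaged cells, lie 16.475 kb apart on the minus strand of chromosome 7, again with no coding gene between them. P2ry2 (chr7:100640649-100663957) had 37.0, 35.98 and 38.3 TPM in females and 37.9, 42.9 and 41.2 TPM in males. It was the steadiest of the 10 genes, with a highest library 1.19-fold above the lowest, and its log2 fold change was 0.06 (SE 0.10, adjusted p = 0.754 in edgeR, 95% interval -0.17 to 0.29).

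P2ry6 (chr7:100585308-100624173) had 34.4, 30.2 and 22.8 TPM in females and 18.7, 31.7 and 18.0 TPM in males. Male 2 lay within the female range and males 1 and 3 below it. In CPM the means were 36.4 ± 6.24 in females and 27.9 ± 8.88 in males (SD, n = 3 each), with a log2 fold change of -0.38 (SE 0.23, adjusted p = 0.378 in edgeR, 95% interval -0.91 to 0.15). The 6 libraries came in the same order for P2ry6 as for the summed TPM of 14 macrophage markers, led by Lyz2 and Tyrobp: female 1, male 2, female 2, female 3, male 1 and male 3, at 4398, 3660.4, 3528, 2756, 2349.9 and 2135 TPM for the markers. Over the 10 genes and 16 marker lists, 1 of 160 pairs had the same order in all libraries, and this one was singled out after its values were seen. Of the 14 macrophage markers 2 had a log2 fold change above 0, against 46.7% of all genes tested. The median of the 14 was -0.40, beside -0.03 over all genes tested. The 1 marker that passed the test, Cx3cr1, was higher in males and was also named after its values were seen. The part of macrophage RNA in the level of P2ry6 was not tested.

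P2ry12, an ADP receptor known from platelets and microglia, and P2ry14, the receptor for UDP-sugars, sit in a cluster on the minus strand of chromosome 3, 62.547 kb apart, with P2ry13 between them. Both lie inside Med12l, a Mediator subunit gene on the opposite strand that stood at 0.57 to 0.913 TPM. P2ry12 (chr3:59123682-59170429) had 16.2, 12.8 and 8.14 TPM in females and 5.78, 9.04 and 10.5 TPM in males. Females 1 and 2 were above all males and female 3 was among them. Its log2 fold change was -0.31 (SE 0.23, adjusted p = 0.473 in edgeR, 95% interval -0.85 to 0.22), and without female 3 it was -0.39 (SE 0.26, adjusted p = 0.387). P2ry13, the neighbouring ADP receptor, was at 4.47, 4.25 and 2.54 TPM in females and 2.62, 3.58 and 2.52 TPM in males, with a log2 fold change of -0.16 (adjusted p = 0.713 in edgeR).

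Microglia are cells of the central nervous system, and P2ry12 is one of their usual marks. The summed level of 5 other microglial markers, led by Olfml3 and Fcrls, was 69.4 to 95.9 TPM in females and 74.5 to 92.5 TPM in males, and 0 of the 5 passed the test. The annotated starts of P2ry12 carried uneven shares. The outermost start, that of P2ry12-201 and P2ry12-204, held 62.3, 76.3 and 43.9% of the TPM in females and 72.5, 22.3 and 39.9% in males, while the innermost start, 42.749 kb downstream, held 14.3, 2.52 and 42.1% in females and 22.7, 75.5 and 49.7% in males. No start led in all libraries. With 402 to 635 estimated counts for the whole gene in a library, such shares rest on few reads.

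P2ry14 (chr3:59021276-59061134) had 21.8, 27.1 and 24.3 TPM in females and 23.0, 20.6 and 27.3 TPM in males. The sexes overlapped throughout, and the log2 fold change was 0.03 (SE 0.15, adjusted p = 0.935 in edgeR, 95% interval -0.32 to 0.38). Scaled by library size alone it was -0.013. Transcripts that began near the inner start held 98.3% of P2ry14 TPM on average, and those that began about 22.3 kb upstream held 1.54%.

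**Figure D3:**
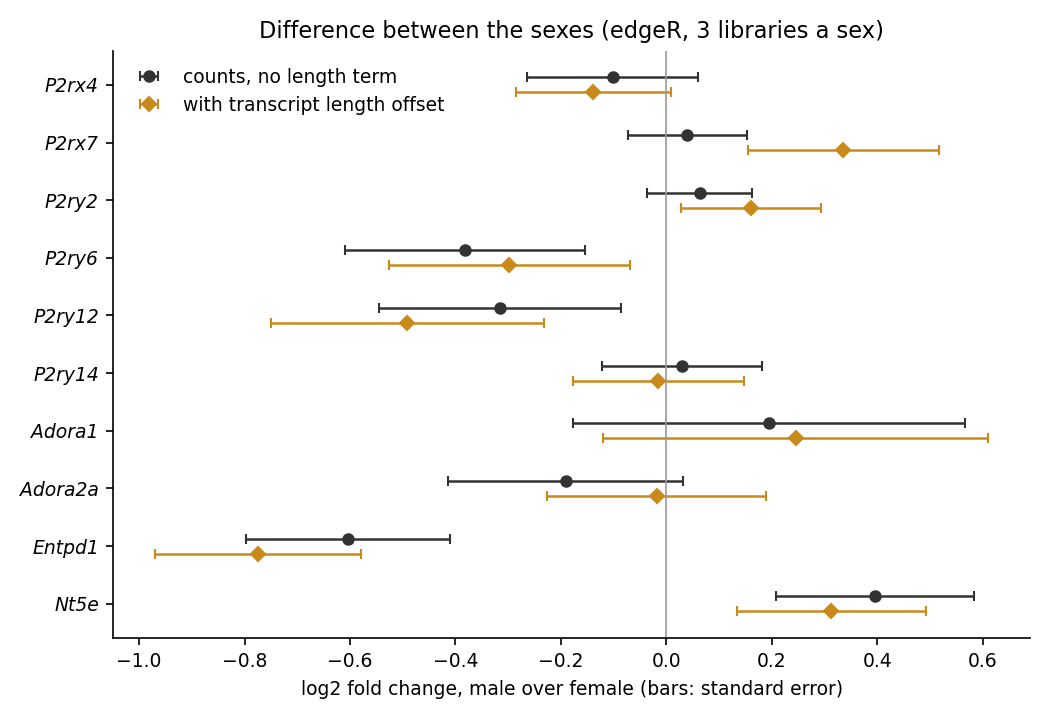
Log2 fold change, male over female, of the 10 genes with its standard error (bars) in edgeR, from counts (circles) and with an offset for the average transcript length (diamonds). Entpd1 lies farthest below 0 on both scales (-0.60 and -0.77), and P2rx7 moves most between them (0.04 and 0.34).

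Entpd1, which begins the breakdown of extracellular ATP, was the gene of the 10 with the largest difference between the sexes. Its level was 48.8, 33.6 and 25.2 TPM in females and 16.9, 23.1 and 20.3 TPM in males. Each female library was above each male library, with female 3 next to male 2. In CPM the values were 94.4, 68.9 and 60.5 in females and 40.5, 58.0 and 48.8 in males, with means of 74.6 ± 17.7 and 49.1 ± 8.78 (SD, n = 3 each). It was the only gene of the 10 without overlap in CPM, against 25.5% of all genes tested. The log2 fold change was -0.60 (SE 0.19, 95% interval -1.05 to -0.16), a male level 0.658 times the female one, with an adjusted p = 0.146 in edgeR, so that it missed the threshold.

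The call for Entpd1 depended on the setting. It passed in DESeq2 (adjusted p = 0.0443), with no filter on low counts in edgeR (adjusted p = 0.0793, where 5.24% of all genes passed), with the transcript length offset (log2 fold change -0.77, adjusted p = 0.0907, where 5.29% passed) and without female 3 (-0.73, adjusted p = 0.0762, where 13.7% passed). Over the 15 alternative fits of the gene the log2 fold change stayed between -0.77 and -0.40 and the adjusted p between 0.0443 and 0.387, with the smallest change and the highest adjusted p without female 1. Female 1, the highest library, also held the highest summed level of macrophage markers (4398 TPM) and of 8 adipocyte markers (1609 TPM, against 113 to 934 in the others). Of these 2 lists 1 of 14 and 0 of 8 genes passed the test. Log2 fold changes were above 0 for 2 of 14 and 0 of 8, with medians of -0.40 and -1.35. The 9 endothelial markers, cells in which Entpd1 is well known, summed to 214 to 301 TPM in females and 255 to 300 TPM in males, and 0 of the 9 passed the test. The part of each cell type in the level of Entpd1 was not tested.

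Entpd1 lies at chr19:40600810-40731585 on the plus strand (GRCm39) and has a pair of main annotated starts 47.404 kb apart. Transcripts from the inner start, led by Entpd1-201, held 70.6 to 95.7% of its TPM in females and 72.6 to 96.3% in males, and those from the outer start, led by Entpd1-204, held 4.3 to 17.6% and 2.02 to 22.2%. In TPM the inner start had 37.2, 32.2 and 17.8 in females and 12.3, 16.7 and 19.6 in males, so that only females 1 and 2 were above all males there. The outer start had 8.61, 1.45 and 3.39 TPM in females and 3.55, 5.13 and 0.41 in males and overlapped. The 250 bases before each start are shown because they are the DNA from which the 2 groups of Entpd1 transcripts begin. They are RefSeq promoter windows of GRCm38.p6, each placed on GRCm39 by its only exact match, and are written 5′ to 3′. Capitals mark the motif CCAAT and, where it lies on the other strand, its reverse complement ATTGG.
Entpd1 outer start, chr19:40600560-40600809: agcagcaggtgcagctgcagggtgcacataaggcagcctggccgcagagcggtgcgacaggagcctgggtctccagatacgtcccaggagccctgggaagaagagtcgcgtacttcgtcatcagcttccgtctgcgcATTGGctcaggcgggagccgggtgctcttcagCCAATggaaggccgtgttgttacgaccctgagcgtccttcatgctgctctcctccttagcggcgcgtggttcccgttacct
Entpd1 inner start, chr19:40647964-40648213: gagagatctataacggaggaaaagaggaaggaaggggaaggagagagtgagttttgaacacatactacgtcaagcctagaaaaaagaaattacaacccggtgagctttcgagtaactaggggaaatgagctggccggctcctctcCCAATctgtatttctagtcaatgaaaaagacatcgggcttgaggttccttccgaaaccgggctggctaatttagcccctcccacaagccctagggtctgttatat
The outer window holds 2 CCAAT motifs, 1 on each strand, and the inner window 1. Neither holds TATAAA on either strand, nor GGGCGG, nor GGAAGT. The first, CCAAT, occurs on 1 strand or the other in 33.8% of 32851 RefSeq promoter windows of the same kind and length, TATAAA in 12.4%, GGGCGG in 32.7% and GGAAGT in 19.7%. A match of letters is a description of the window and does not show a bound site.

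Nt5e (chr9:88209089-88254146), which makes adenosine from AMP, had 11.5, 11.0 and 9.2 TPM in females and 12.0, 9.84 and 16.4 TPM in males. Male 3 was the highest library and the other 2 males bracketed the females 1 and 2. Its log2 fold change of 0.40 (SE 0.19, adjusted p = 0.28 in edgeR, 95% interval -0.04 to 0.83) had the opposite sign to that of Entpd1. The ratio of Entpd1 to Nt5e in TPM was 4.23, 3.06 and 2.74 in females and 1.4, 2.35 and 1.24 in males. In this ratio all females were above all males. It is given as a description without a test, since with 3 libraries a sex it adds nothing to the values of its 2 genes.

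Adora2a and Adora1 were the lowest of the 10 genes. Adora2a (chr10:75152560-75170628), a receptor that raises cyclic AMP and is known for restraining leukocytes, had 3.64, 4.99 and 4.35 TPM in females and 4.64, 3.53 and 4.38 TPM in males. The ranges nearly coincided, and the log2 fold change was -0.19 (SE 0.22, adjusted p = 0.663 in edgeR, 95% interval -0.71 to 0.33). With the transcript length offset it was -0.019, and without male 2 it was 0.011.

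Adora1 (chr1:134126948-134163579), a receptor that lowers cyclic AMP and is known from neurons, had 1.97, 2.8 and 0.963 TPM in females and 1.58, 1.7 and 3.16 TPM in males. Male 3 and female 2 were highest and female 3 lowest, a 3.29-fold range, the widest among the 10 genes, and the log2 fold change was 0.19 (SE 0.37, adjusted p = 0.802 in edgeR, 95% interval -0.67 to 1.06). Its sign turned to -0.07 without female 3 and -0.19 without male 3. Part of Adora1 overlaps Mybph, a gene of muscle myosin-binding protein on the opposite strand, and 60.4% of the 31-base words in Adora1 transcripts also occur, on either strand, in transcripts of other genes, chiefly Mybph. Mybph had 2.7, 3.83 and 1.54 TPM in females and 1.37, 1.89 and 3.56 TPM in males. The summed level of 10 skeletal muscle markers, led by Acta1 and Tnnt3, was 342, 518 and 32.4 TPM in females and 9.9, 7.84 and 660.4 TPM in males, and 1 of 9 tested passed, Myh4, lower in males, named after its values were seen. The 3 libraries with the highest muscle sums were also the 3 highest for Adora1. The library kit kept strand, but the strand setting of the quantification is not given in the sources used here, so the level of Adora1 is uncertain, and the part of Mybph reads in it was not tested. For the other 9 genes the share of such words was 0 to 8.33%.

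**Figure D4:**
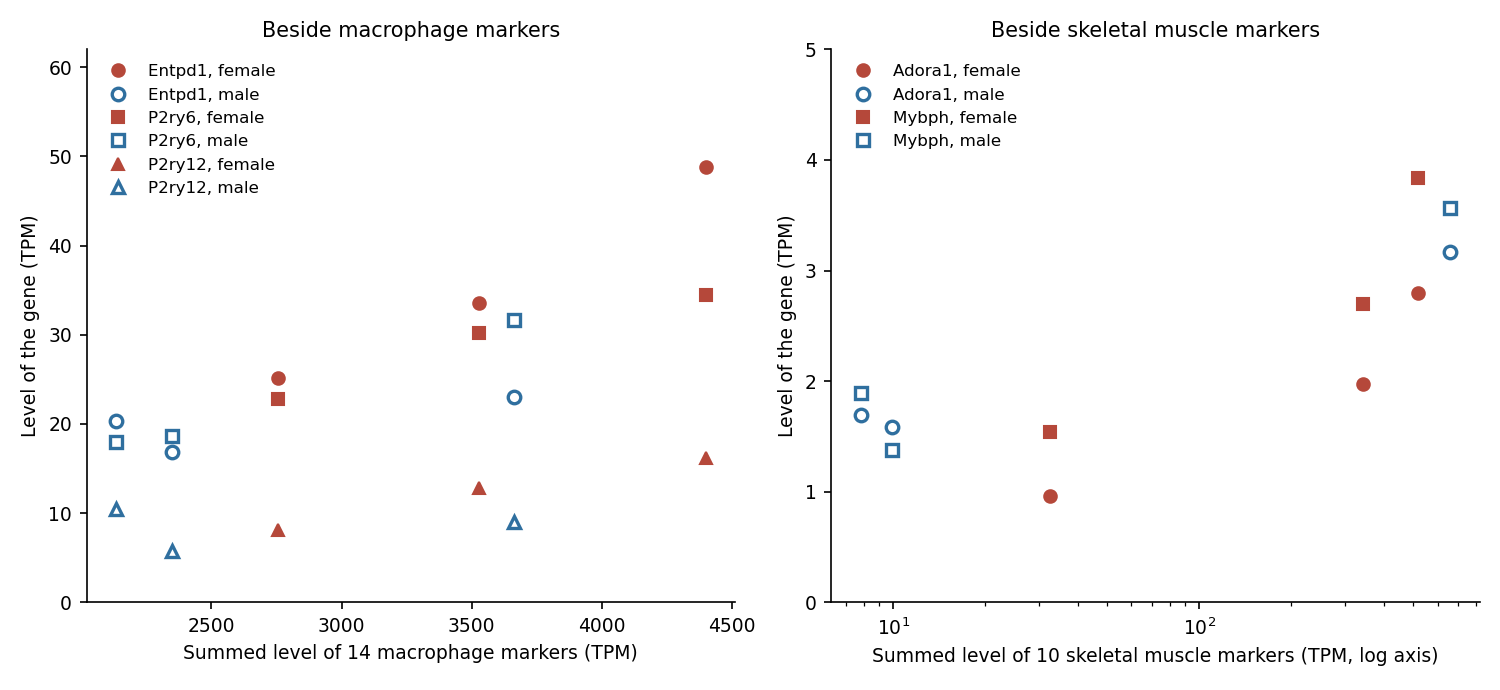
Level of Entpd1, P2ry6 and P2ry12 against the summed level of 14 macrophage markers (left), and of Adora1 and its overlapping gene Mybph against that of 10 skeletal muscle markers on a log axis (right), in TPM, 1 point for each gene and library (filled, female; open, male). The order of libraries is the same for P2ry6 and the macrophage sum, and Adora1 is highest in the 3 libraries with muscle sums of 342, 518 and 660.4 TPM.

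By role, the summed TPM of the P2X pair was 91.0 to 102 in females and 97.4 to 107 in males, that of the 4 P2Y genes 93.5 to 109 and 85.4 to 104, and that of the adenosine receptors 5.31 to 7.79 and 5.23 to 7.54. These ranges overlapped between the sexes. The sum of Entpd1 and Nt5e was 34.4 to 60.4 TPM in females and 28.9 to 36.8 TPM in males, and female 3 fell in the male range. Over all 10 genes the sum was 224 to 267 TPM in females and 218 to 249.7 TPM in males.

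The wider set of purinergic genes held calls in both directions. In the files were 49 further genes listed by family name or role (other receptors, ectoenzymes, release channels, and adenosine uptake and salvage). Of these, 42 passed the filter and 6 passed the test, 4 higher in males and 2 higher in females. That is 14.3%, against the 5.30% of all genes tested. The lists were chosen with earlier results of these data known, so the 2 shares are a description and do not measure enrichment. The median log2 fold change of the 42 genes was -0.12, with 16 of 42 above 0. All 6 calls were lost without female 1 and without male 3.

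Among the other receptors, 0 of 4 tested P2X genes passed, all at low level, the highest being P2rx5 (0.928 to 1.49 TPM) and P2rx1 (0.475 to 1.31 TPM). Of 6 tested P2Y and P2Y-like genes 2 passed. P2ry10b, a lymphocyte-associated receptor, is listed here for its P2Y name and not for a known response to nucleotides. It had 4.24, 4.13 and 1.3 TPM in females and 1.24, 0.94 and 1.04 TPM in males, with a log2 fold change of -1.12 (SE 0.27, adjusted p = 0.0842 in edgeR). Female 3 lay close to the males, and without it the change was -1.33. Gpr17, a P2Y-like receptor known from oligodendrocyte precursors, had 0, 1 and 0 counts in females and 14, 27 and 21 counts in males (adjusted p = 0.0375 in edgeR), too few for a fold. The sum of 8 oligodendrocyte markers was 401 to 466 TPM in females and 588 to 709 TPM in males. Of 7 tested 5 passed, all higher in males, against 5.30% of all genes tested that passed. The median log2 fold change of the 7 was 4.62, beside -0.03 over all genes tested. Cnp and Mag led the sum, at 345.9 and 189.5 TPM on average, and 3 of the 8 were under 1 TPM in all libraries. Mag is also on the list of myelinating Schwann cell markers, so the sum does not tell oligodendrocytes from Schwann cells. Mag itself did not pass (adjusted p = 0.311 in edgeR), and the 5 that passed are not on that list. The part of any cell type in the counts of Gpr17 was not tested. P2ry1, an ADP receptor, was the highest of the group at 6.46 to 10.7 TPM, with a log2 fold change of -0.09 (adjusted p = 0.819 in edgeR), followed by Gpr34 at 2.13 to 4.84 TPM (0.25, adjusted p = 0.57).

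Of the other adenosine receptors, neither passed. Adora2b had 11.5, 8.88 and 6.91 TPM in females and 6.5, 7.19 and 4.47 TPM in males, a log2 fold change of -0.55 (SE 0.23, adjusted p = 0.221 in edgeR), and was on average above Adora2a (7.57 and 4.26 TPM). Adora3 had a log2 fold change of -0.50 (SE 0.33, adjusted p = 0.417 in edgeR).

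Of 11 other ectoenzyme genes tested 2 passed, in opposite directions. Entpd2, which hydrolyses ATP in preference to ADP and is known from Schwann cells, had 41.9, 56.4 and 34.2 TPM in females and 75.7, 78.4 and 95.8 TPM in males. All males were above all females, and the log2 fold change was 0.85 (SE 0.16, adjusted p = 0.0505 in edgeR). At 63.7 TPM on average, Entpd2 was above Entpd1 (28.0 TPM). The myelinating Schwann cell markers, led by Pmp22 and Mbp, had 4 of 8 genes that passed the test, each higher in males. Of 8 Schwann cell markers of any state, led by S100b and Sox10, 1 passed, higher in males. Their median log2 fold change was 0.05, and they summed to 527 to 723 TPM in females and 777 to 944 TPM in males. Over all genes tested 5.30% passed. The part of either list in the difference of Entpd2 was not tested. Dpp4 (CD26), a surface peptidase that binds adenosine deaminase, had 7.6, 9.2 and 4.2 TPM in females and 3.5, 2.8 and 3.83 TPM in males, a log2 fold change of -0.93 (SE 0.19, adjusted p = 0.0642 in edgeR). Female 3 lay next to male 3, and without it the change was -1.07 (adjusted p = 0.0435 in edgeR). Pnp, which splits purine nucleosides, was the highest of the list at 94.97 to 141 TPM and did not pass (log2 fold change 0.18, adjusted p = 0.605 in edgeR).

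Of 11 release genes tested 2 passed, both higher in males. Panx2, a pannexin known from neurons, had 14, 19 and 16 counts in females and 56, 63 and 67 counts in males, with a log2 fold change of 1.90 (SE 0.32, adjusted p = 0.0421 in edgeR). The call was lost with the transcript length offset (1.52, adjusted p = 0.13), and in TPM female 1 (0.346) nearly reached male 1 (0.358). The 10 neuron markers shared by central neurons summed to 27.3 to 32.4 TPM in females and 45.1 to 63.0 TPM in males, with 7 of 10 called higher in males. The 11 sensory neuron markers summed to 18.4 to 21.9 TPM in females and 26.4 to 29.9 TPM in males. Of 7 of them tested 1 passed, higher in males, against 5.30% of all genes tested that passed. The median log2 fold change was 2.71 for the 10 neuron markers and 0.23 for the 7 tested sensory markers. The part of either list in the counts of Panx2 was not tested. Ank, which exports pyrophosphate and ATP, had 73.7, 82.7 and 72.7 TPM in females and 114, 97.6 and 115 TPM in males, a log2 fold change of 0.45 (SE 0.11, adjusted p = 0.0884 in edgeR). Scaled by library size alone it missed the threshold (adjusted p = 0.101). The gap junction gene Gjb1, the highest of the list at 178 to 291 TPM, did not pass (log2 fold change -0.19, adjusted p = 0.612 in edgeR). Of 8 uptake and salvage genes tested 0 passed, among them Ahcy (0.16, adjusted p = 0.377) and Adk, adenosine kinase (-0.32, adjusted p = 0.127, both in edgeR).

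**Figure D5:**
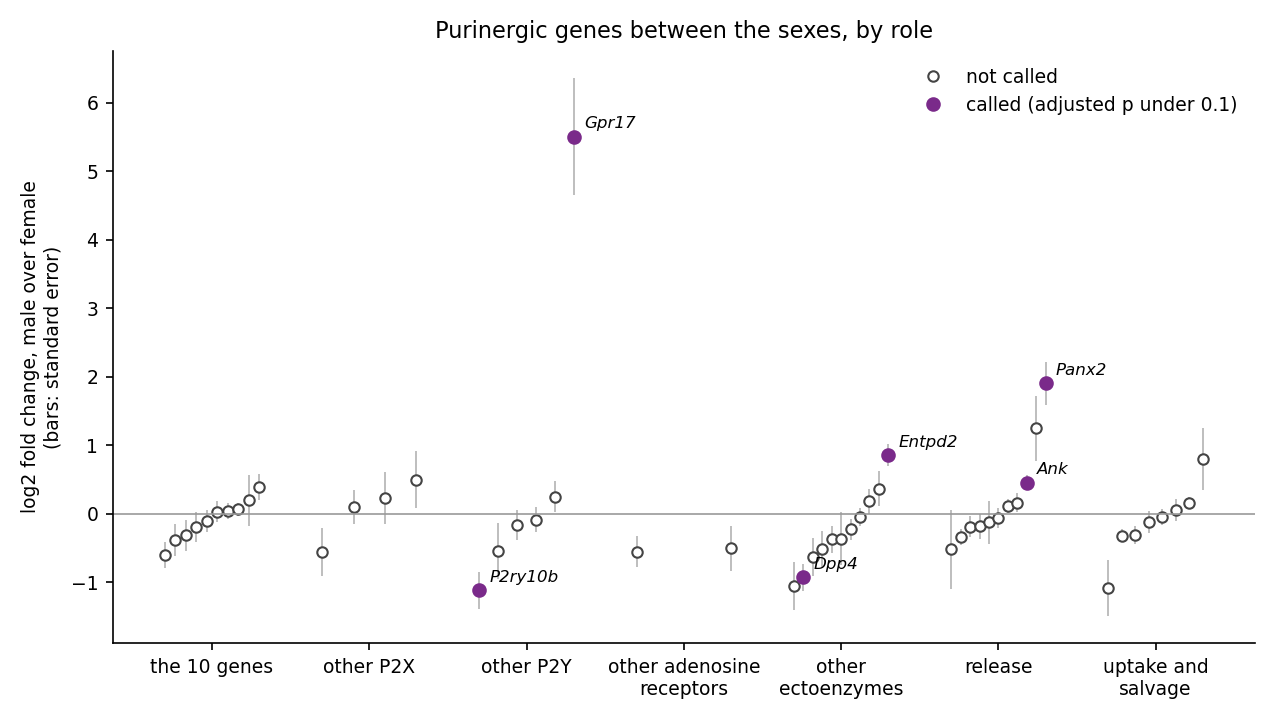
Log2 fold change, male over female, with standard error (bars) of the 10 genes and of the 42 further purinergic genes tested, by role (edgeR), with genes called at an adjusted p under 0.1 filled and named. The 10 genes lie between -0.60 and 0.40 and none is filled, while 6 of the others are; the point of Gpr17 (5.50) rests on 1 count in all females.

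For 9 of the 10 genes the protein-coding gene of closest pattern was sought among 13481, as the smallest root mean square difference of centred log2 CPM over the 6 libraries. The closest was Lemd2 for P2ry2 (difference 0.021, where P2ry2 itself varied by 0.09), Igsf3 for P2rx7 (0.023 of 0.10) and Aim2 for P2ry6 (0.055 of 0.35). It was Vrk1 for P2rx4, Gramd1c for P2ry14, Pabpc4l for Adora2a and Hs3st1 for P2ry12, at 0.039, 0.042, 0.050 and 0.051. The least close were Mest for Nt5e (0.085 of 0.30) and Cyp27a1 for Adora1 (0.11 of 0.49). With 6 libraries and so many genes a near match is found for any pattern, so these are descriptions.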

How the data were processed

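Per the labels and the study's methods, the authors made poly-A libraries with a stranded kit, sequenced paired ends, trimmed reads with Trimmomatic 0.39 and quantified them with Salmon 1.5.2 (versions from the submitters' processing notes) against GENCODE mouse transcripts. The sources used here differ on the Salmon version and on the GENCODE release. The files held deposited estimated counts, TPM and an effective length for 140789 transcripts in each of 6 libraries. Estimated counts and TPM were summed by gene symbol, and the counts were rounded to whole numbers. Total counts were 49158283 to 69848769 a library, and intervals from the fits cover the spread between these libraries. Pools came from separate mice.

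Male and female libraries were compared with edgeR 4.0.16 (R 4.3.3): TMM scaling, filterByExpr, a quasi-likelihood F test with sex as the only term, and Benjamini-Hochberg adjustment over 18396 genes, with a threshold of adjusted p under 0.1. A call means an adjusted p under that threshold, and adjusted p-values printed for alternatives come from the fit named beside them. Alternatives were DESeq2 1.42.0 size factors and Wald test, library size alone, limma-voom (limma 3.58.1), other filters, protein-coding genes alone, an offset for average transcript length, the replicate number as a block, other thresholds, and each library left out. Levels of different genes were compared in TPM (log2 of TPM + 0.01) by an exact sign-flip permutation test. The wider purinergic and marker lists, and the 10 genes, were chosen with earlier results of these data known. Genes were named by rule: the 10 genes, called genes (up to 4 a direction) and the 2 of highest TPM in each wider list, the 2 of highest TPM in each marker list used, 1 gene of closest pattern for each of the 10, and overlapping or neighbouring genes. Xist, Ddx3y, Eif2s3y, Kdm5d and Uty served as a check of sex labels. A few genes that these rules or lists would name are not reported here, and the marker sums and counts printed for microglia and myelinating Schwann cells leave them out.

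Coordinates are 1-based on GRCm39 from GENCODE M39, which held 62 of the 63 transcripts of the 10 genes and may differ from the release used for quantification. Words of 31 bases shared between genes were counted in its transcripts.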

Additional observations from a re-analysis of the deposited data

How the results depend on the processing

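Of the 10 genes, 1 (Entpd1) was called by DESeq2's Wald test, 1 with no filter on low counts and 1 with the transcript length offset, against 0 in the fit reported; leaving out 1 library gave 0 to 1. Signs of values near 0 turned: P2rx7 was at -0.0069 and P2ry14 at -0.013 with library size alone, and P2ry14 at -0.016 with the length offset. Without 1 library, P2rx7 ranged from -0.049 to 0.14, P2ry14 from -0.092 to 0.15, Adora1 from -0.19 to 0.53 and Adora2a from -0.35 to 0.011. The count over all genes, 975, became 2432 with DESeq2, 1614 with no filter, 279 at an adjusted p under 0.05, 404 with more than 2-fold required, and 1 to 2609 without 1 library. The 6 further purinergic calls became 2 and 3 under those stricter thresholds, and 0 to 11 without 1 library. The 3 separated steps in the order of levels became 0 without any 1 library, where 5 libraries cannot give a p low enough to pass. The leading transcripts of 6 of the 10 genes held a share of counts that was above their share of TPM by more than 1 SD between libraries: 67.2% for P2rx4-202, 72.0% for P2rx7-203, 66.7% for P2ry2-201, 99.5% for P2ry6-201, 97.6% for Adora2a-201 and 89.3% for Entpd1-201. Replicate numbers did not pair the samples: same-numbered deviations correlated at -0.04, -0.30 and -0.30, and female 2 correlated best with male 3 (0.40). With the replicate number as a block 56 genes were called over all, 0 of the further purinergic genes and 0 of the 10 (Entpd1 -0.59, adjusted p = 0.266 in edgeR). Of the called genes, Gpr17 and Panx2 rested on few reads, 0 to 67 counts a library. Beyond the constructions named, the cause of these shifts was not tested.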

Other observations

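Without female 3, the female library with counts of Ddx3y and Eif2s3y, 11 of the further purinergic genes passed the edgeR test, the 6 named in the report among them. In that fit 13.7% of all genes passed, against 5.30% with all 6 libraries. The other 5 were lower in males. They were Slc28a2, a nucleoside transporter (log2 fold change -1.41, adjusted p = 0.0571), Enpp3, an ectoenzyme of basophils and mast cells (-1.24, adjusted p = 0.0927), the cytosolic nucleotidase Nt5c2 (-0.41, adjusted p = 0.0876), the scramblase Ano6 (-0.40, adjusted p = 0.0793) and adenosine kinase Adk (-0.38, adjusted p = 0.066). In that fit Entpd1 stood at -0.73 (SE 0.19) and the other 9 of the 10 genes between -0.49 for P2ry6 and 0.31 for Nt5e, with adjusted p of 0.263 to 0.917 in edgeR. These genes were named after their values were seen.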
